A study of Rattus norvegicus with 24 samples.

Results

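The genes described here encode the microtubule proteins of the testis: the alpha, beta and gamma tubulins, the kinesin and dynein motors, and the parts of the sperm flagellum. They were chosen by name, as genes whose symbol begins with Tuba, Tubb, Tubg, Kif and a digit, Dnah, Dnai, Dynl, Tekt, Ift and a digit, Cfap or Spag, or is Akap3 or Akap4, leaving out Kif11, Kif20a and Kif23. The rule gave 103 genes of the 14217 named by a single-gene probe set on the array. They were read by 146 probe sets, and the brightest one stands for each gene. They comprise 10 alpha and beta tubulins, 5 genes of the gamma tubulin complex, 24 kinesins, 7 cytoplasmic dynein light chains, 6 axonemal dynein chains, 17 intraflagellar transport genes, 19 Cfap genes, 7 tektins, both fibrous sheath anchors and 6 Spag genes.

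A microtubule is a hollow polymer of alpha and beta tubulin, nucleated from rings of gamma tubulin, and cells choose among several beta tubulin genes. Kinesins walk mostly toward the plus end of a microtubule and dyneins toward the minus end. The flagellum of a sperm is a modified cilium: dynein arms slide its doublet microtubules, tektins and other proteins line the inside of the doublets, intraflagellar transport trains carry parts along it, and a fibrous sheath built on Akap3 and Akap4 surrounds its principal piece. Spermatids build it after meiosis. In Sertoli cells microtubules carry spermatids and vesicles through the epithelium, and phthalate esters are known for their action on Sertoli and Leydig cells.

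RNA of Fisher 344 rat testes was hybridised to 24 one-colour arrays, 4 in each of 6 groups. Dams received dibutyl phthalate (DBP) at 50 mg/kg or oil by daily gavage on gestation days 12 to 20. At postnatal day 35 (PND35) the male offspring received a single gavage of 500 mg/kg DBP or oil and were killed 6 h later. The PND35 groups are named by the fetal and then the postnatal treatment: DBP-DBP, oil-DBP, DBP-oil and oil-oil. The 2 other groups are fetal testes of gestation day 20 (GD20), from dams given DBP and taken 6 h after the last dose, and from dams given oil, for which no interval is recorded. The label of 1 GD20 oil sample says that it was pooled. Nothing ties pups to litters, so p-values measure the spread between these animals.

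Median intensity was 100.8 to 114.1 on the PND35 arrays and 165 to 175.1 on the GD20 arrays, and RNA integrity numbers were 8.2 to 8.9. The 17 spermatid markers on the array summed to 156000 to 209000 in PND35 oil-oil testes and to 824 to 912 in GD20 oil testes. The dimmest averaged 87.6 (H1f6) in PND35 oil-oil testes and 6.41 (Tssk2) in GD20 oil testes. None read 0 at either age, so a value above 0 does not show presence. The 14 markers of epididymis and efferent duct summed to between 12900 and 15200 in PND35 oil-oil testes and between 5020 and 5570 in GD20 oil testes. Dynlrb2, itself among the genes described here, was in this list and made up much of the PND35 sum. It read 7370 to 9220 in PND35 oil-oil testes and 67.9 to 147 in GD20 oil testes. RNA of the GD20 samples was prepared by another method than that of any PND35 sample, so age and preparation cannot be told apart. At PND35, RNA of oil-oil pup 104 and oil-DBP pup 115 was prepared with Trizol and a clean-up, and that of the other pups with a column kit. Poly-A spike-in controls fell into a high and a low class that crossed some comparisons. All 4 DBP-DBP pups and DBP-oil pups 132 and 134 were in the high class at PND35, and DBP dams 19 and 21 were in the low class at GD20. The arrays of oil-DBP pup 105 and DBP dam 21 stood apart for these genes, and results that rest on them are given with and without them.

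Most flagellar genes were far higher in the pubertal than in the fetal testis. Of the 103 genes, 75 were higher and 17 were lower in PND35 oil-oil testes than in GD20 oil testes. The background over all 14217 genes was 49.2% higher and 26.7% lower. These calls, like all below, come from limma with Benjamini-Hochberg adjustment over 31042 probe sets at 0.05. The median log2 difference of the 103 genes was 2.39, and that of all genes was 0.42. All 6 axonemal dynein chains, all 19 Cfap genes, all 7 tektins and both Akap genes were higher, and so were 16 of 17 intraflagellar transport genes. These counts stayed the same under all 4 scalings of the arrays. Log2 differences between the ages are relative to the median probe set, which was 0.65 lower at PND35 on the deposited scale (a shift of -0.654). Of the 43 further probe sets of these genes, 23 passed in the direction of the brightest one and 1, for Spag9, in the opposite direction. In bulk tissue fewer cells of a type and less RNA per cell cannot be told apart.

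**Figure D1:**
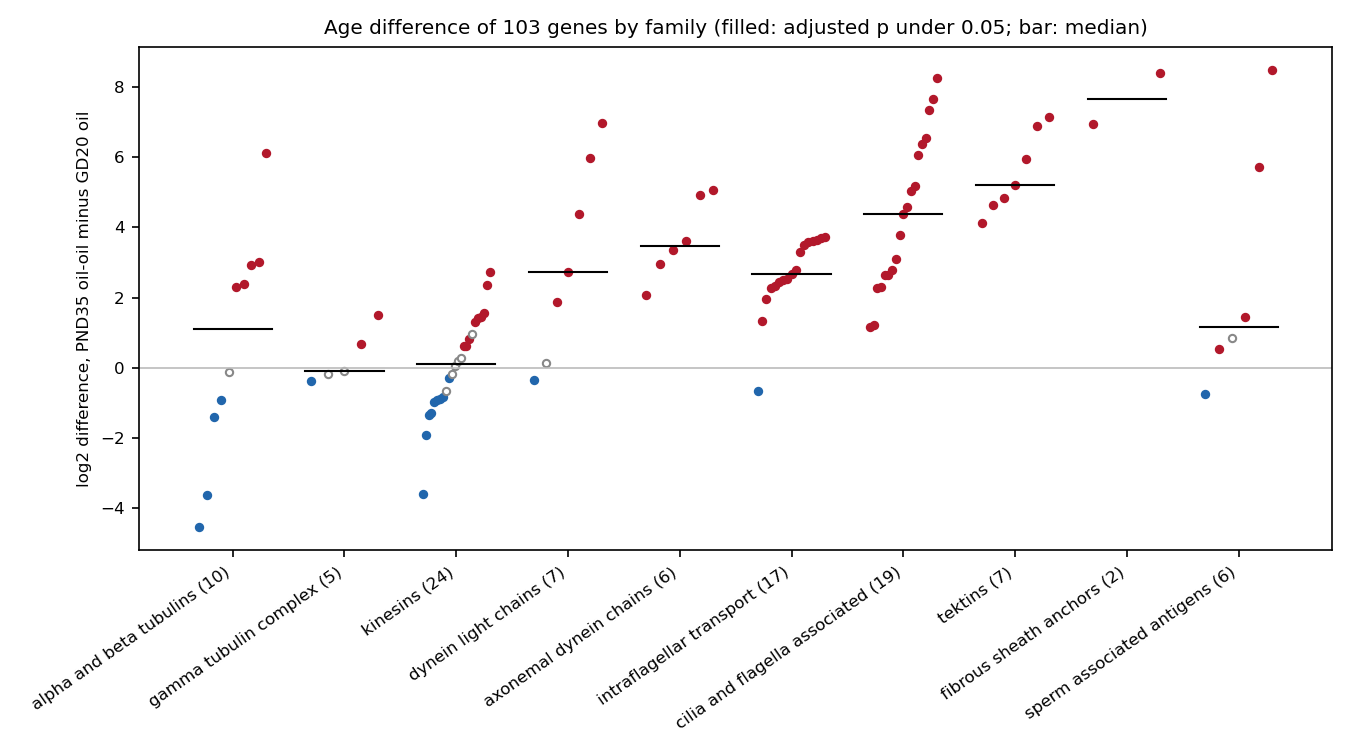
Log2 difference of each of the 103 genes, PND35 oil-oil minus GD20 oil testes, by family with the number of genes in brackets. Filled red points were higher and filled blue points lower at an adjusted p under 0.05, open points were not called, and the bar is the family's median. The tektins, Cfap genes, axonemal dyneins and fibrous sheath anchors lie wholly above 0, and the kinesins and tubulins lie on both sides.

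Genes of the fibrous sheath and the central pair were higher at PND35. Akap4, the main anchor of protein kinase A in the sheath, read 5070, 6370, 3990 and 4000 in PND35 oil-oil testes, against 5.56, 3.43, 12 and 5.36 in GD20 oil testes (log2 difference 8.39 ± 0.17, SE, adjusted p = 3.28e-14). Akap3, its partner, averaged 6060 in PND35 oil-oil testes and 62.2 in GD20 oil testes. Akap4 lay below the offset of 16 in the fetal testis, and the offset, added before logs, makes its difference smaller than the intensity ratio. Spag16, a protein of the central pair of axonemal microtubules, read 4730, 4570, 4150 and 3760 in PND35 oil-oil testes, against 3.42, 2.18, 2.53 and 3.84 in GD20 oil testes. Its log2 difference was 8.48 ± 0.12, and 5.31 when averaged over all its probe sets. With an offset of 64 the differences of Spag16 and Akap4 were 6.52 and 6.59, and that of Cfap161 was 7.3, so the order of these genes depends on the offset. Spag4, a nuclear envelope protein that mouse spermatids need to shape the head, averaged 5030 in PND35 oil-oil testes and 135 in GD20 oil testes.

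The Cfap genes and the tektins were higher as well. Cfap161, found in the doublets of mammalian cilia, averaged 12800 in PND35 oil-oil testes and 50.7 in GD20 oil testes (log2 difference 8.26 ± 0.15). Cfap276, Cfap299, Cfap144, Cfap126 and Cfap90 had log2 differences of 7.66, 7.34, 6.55, 6.37 and 6.05. The smallest in the family were Cfap300 (1.17 ± 0.08) and Cfap77 (1.22 ± 0.15), with Cfap300 already at 1360 in GD20 oil testes against 1950 in PND35 oil-oil testes. Among the tektins, which form filaments inside the doublets, Tekt2 read 10100, 10600, 7980 and 7780 in PND35 oil-oil testes, against 89.7, 69.6, 99.1 and 80.5 in GD20 oil testes. Tekt1 averaged 14100 in PND35 oil-oil testes and 584 in GD20 oil testes. The 7 tektin differences ran between 4.11 and 7.15.

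The motors of the axoneme followed the same direction. Dnai1, an intermediate chain of the outer dynein arm, averaged 1470 in PND35 oil-oil testes and 58.1 in GD20 oil testes (log2 difference 5.06 ± 0.23). Dnah1, Dnah2 and Dnah7, heavy chains of inner arms, had log2 differences of 4.91, 3.61 and 2.95. Dnah17, the outer arm heavy chain of sperm, was dimmest, at 117 in PND35 oil-oil testes and 36.1 in GD20 oil testes. Of the light chains that cytoplasmic dyneins and axonemes share, Dynlrb2 averaged 8500 in PND35 oil-oil testes and 94.6 in GD20 oil testes, whereas its paralog Dynlrb1 averaged 2090 in PND35 oil-oil testes and 4170 in GD20 oil testes (log2 difference -0.35 ± 0.08, adjusted p = 0.00214).

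Intraflagellar transport was present before birth and moved less. The median of its 17 genes was 2.66, and the differences of the 16 that were higher ran from 1.33 for Ift52 up to 3.73 for Ift81. Kif3a, a motor subunit of the anterograde trains, averaged 3330 in PND35 oil-oil testes and 772 in GD20 oil testes, and its partner Kif3b averaged 1830 in PND35 oil-oil testes and 551 in GD20 oil testes. Ift70b was the one gene of the family that was lower (-0.67 ± 0.18, adjusted p = 0.00439), at 96.1 in PND35 oil-oil testes and 260 in GD20 oil testes, while its relative Ift70a1 was higher by 3.62.

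Tubulins and kinesins went both ways. Tubb2b read 33.2, 50.7, 115 and 47.2 in PND35 oil-oil testes, against 2480, 2890, 2770 and 2380 in GD20 oil testes (log2 difference -4.54 ± 0.23, adjusted p = 4.26e-10). Tubb6 read 113, 71, 80.3 and 139 in PND35 oil-oil testes, against 1890, 2350, 2340 and 2160 in GD20 oil testes (-3.61 ± 0.16). Tubb5 (-1.40) and Tubb2a (-0.91) were lower too. Tuba8 (6.10), Tubb1 (3.01), Tubb3 (2.93), Tuba4a (2.39) and Tubb4b (2.29) were higher, and Tubb4b, the main beta tubulin of cilia, was the brightest at 26100 in PND35 oil-oil testes and 8390 in GD20 oil testes. Beta tubulin genes are close copies of each other, so a probe set may take signal from a paralog, and values of single tubulins are uncertain to that extent.

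The 24 kinesins split into 9 higher and 9 lower. On the deposited scale the split was 6 higher and 11 lower, and after quantile normalization 7 higher and 12 lower. Kif13a, which moves recycling endosomes, averaged 10.3 in PND35 oil-oil testes and 484 in GD20 oil testes (-3.58 ± 0.22). Kif3c (-1.92), Kif1c (-1.35), Kif7 (-1.29), Kif5a (-0.96) and the mitotic kinesins Kif14 (-0.92), Kif18a (-0.90) and Kif15 (-0.83) were also lower. The spindle genes Kif20b (1.56), Kif2c (1.44) and Spag5 (1.45) were higher.

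Lists of other flagellar and ciliary genes went the same way with age, and a list of microtubule-associated genes went both ways. All 12 radial spoke and docking genes, all 14 genes of the fibrous sheath and outer dense fibres, all 9 dynein arm assembly genes and 28 of 29 regulators of cilia and spermiogenesis on the array were higher in PND35 oil-oil testes. Of 32 microtubule-associated and tubulin-modifying genes, 11 were higher (34.4%) and 14 lower (43.8%). The background over all genes was 49.2% higher and 26.7% lower. The 17 spermatid markers, all higher, had a median log2 difference of 7.67. Their part in the differences of the flagellar genes was not tested.

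Promoters were read because so many of these genes moved together. RefSeq promoter windows of 300 bases in rat build GRCr8 were at hand for 87 of the 103 genes and for 27457 genes in all. Each spans 250 bases before and 50 after the start, a single start taken for each gene. In Cfap20, Cfap298 and Tektl1 this start lies inside the outer limits of the gene. The letters GTTGCC, which belong to the X-box that RFX factors bind in ciliary genes, were searched on both strands. They stood in 23 of the 87 windows (26.4%), in 7 of 16 Cfap windows (43.8%) and in 4 of 6 tektin windows (66.7%), against 3343 of all windows (12.2%). The axonemal dynein chains and Akap genes, also higher at PND35 without exception, had them in 1 of 6 windows (16.7%) and 0 of 2. A match describes the letters and is no evidence of binding. The 30 bases around the match nearest the start are shown for the tektins and Cfap genes, the families with the largest shares. They are on the gene's own strand, with only that match, GTTGCC or its reverse complement GGCAAC, in capitals. The stretches of Cfap20dc and Cfap298 each hold a further match, gttgcc, left in lower case.
Tekt1 (chr10:57479143-57479172, minus strand): acgttgcgtccgGTTGCCatagtgaccgca
Tekt2 (chr5:143907697-143907726, minus strand): ttctcagacctgGGCAACgaaggcgagcag
Tekt4 (chr10:14992267-14992296, plus strand): caatgttcctgaGGCAACcaggagccttgc
Tektl1 (chr7:11552691-11552720, plus strand): gaggttgtcctgGTTGCCaagggagctctg
Cfap144 (chr10:44019285-44019314, minus strand): cgaggaacacccGTTGCCtggaaacagtag
Cfap161 (chr1:147177772-147177801, minus strand): tatggtcctggagtgcggatgGGCAACtgg
Cfap20 (chr19:9614815-9614844, plus strand): gaatagtcccttGGCAACcgagttccgctc
Cfap20dc (chr15:18661380-18661409, plus strand): ctcagttgcctgGGCAACggctcagccaag
Cfap298 (chr11:43677448-43677477, minus strand): actgttgcccttGGCAACagtcacttccgc
Cfap36 (chr14:107192368-107192397, minus strand): tgcggggaccgtGTTGCCcgcattccccgt
Cfap90 (chr1:36678313-36678342, minus strand): gcgcagttgctaGGCAACgaccgagcgcag

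These sites lay close to the start in Tekt4 (5 bases before it), Cfap144 (21 before), Cfap90 (27 before) and Tekt1 (39 before). Cfap298 had 4 matches and Cfap144 had 3 in their windows. The GC box GGGCGG stood in 51 of the 87 windows (58.6%), against 34.9% of all windows. The core of the cyclic AMP response element, TGACGT, stood in 12.6% of the 87 windows and 8.22% of all, the A-MYB letters AACNGTC in 8.05% and 8.29%, and the TATA box TATAAA in 10.3% and 14.3%. No test was made of these shares.

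At 6 h after postnatal DBP a few tubulin and motor genes were higher, and the largest difference was that of Tubb6. In oil-DBP testes 6 of the 103 genes were higher and 3 were lower than in oil-oil testes, against a background over all genes of 6.18% higher and 5.99% lower, so the share of members higher, 5.83%, was near the background. In DBP-DBP testes 4 genes were higher and 0 lower than in DBP-oil testes, against 5.16% higher and 2.17% lower. These 4, Tubb6, Tubb2a, Spag9 and Kif21a, were all among the 6 of the animals with no fetal DBP. Over all genes, 631 of the 734 called higher in DBP-DBP testes (86%) were also called higher in oil-DBP testes. The 2 comparisons share no array, although 1 fit gave both. Of the 103 genes 83 (80.6%) had the same sign in both, against 72.9% of all genes.

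**Figure D2:**
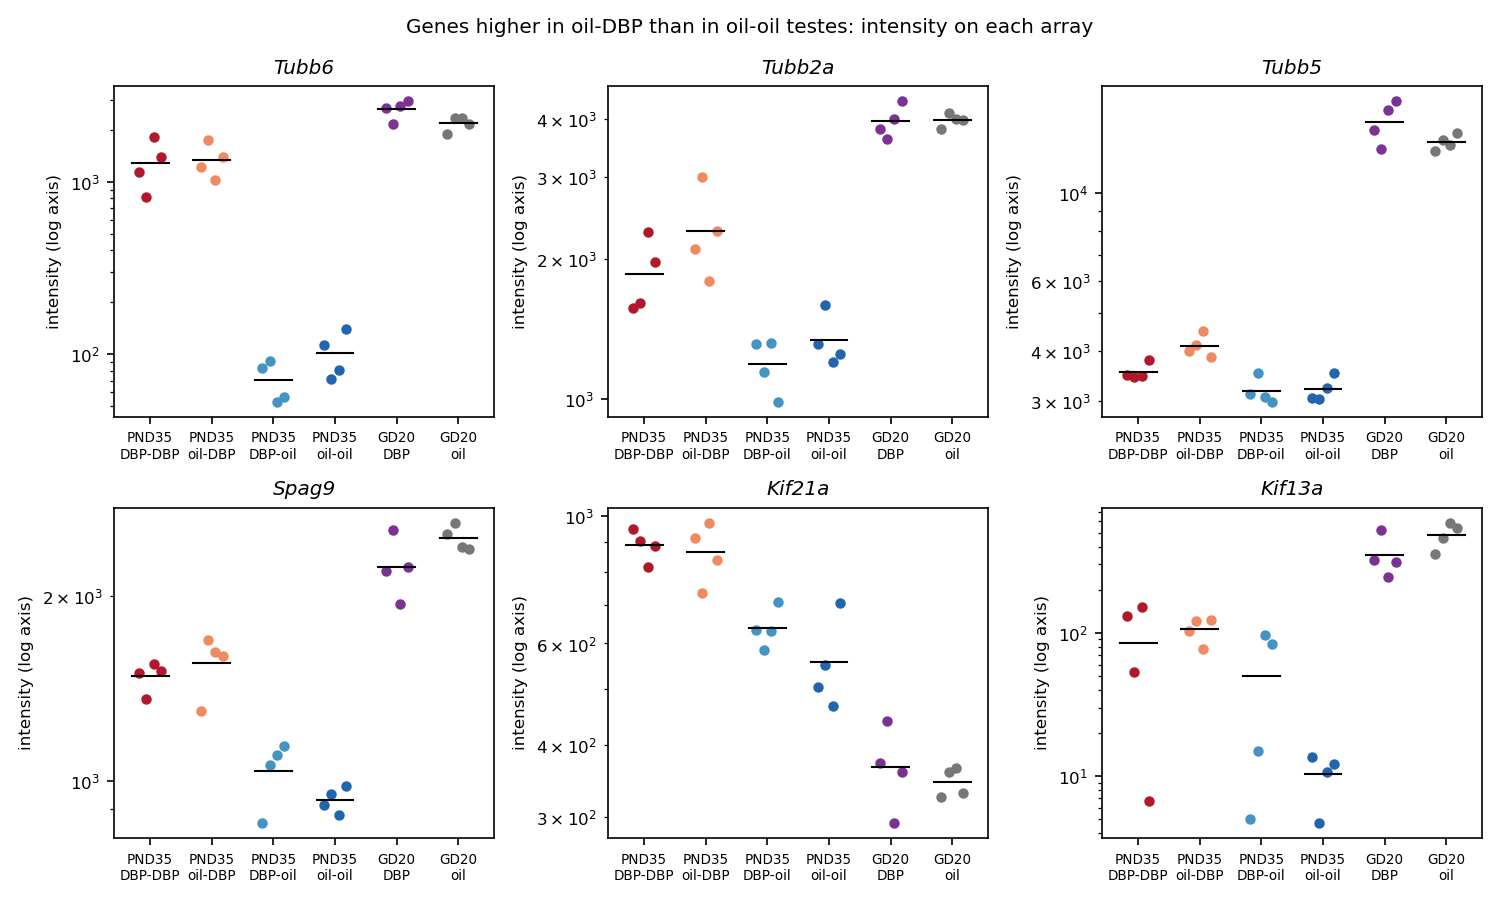
Intensity on a log axis on each of the 24 arrays (points) with group means (bars) for the 6 genes that were higher in oil-DBP than in oil-oil testes. Tubb6, Tubb2a, Spag9 and Kif21a lie higher in both groups given postnatal DBP, Tubb6 at 812 to 1810 against 52.7 to 139 in the groups given postnatal oil. Kif13a differs in spread between groups.

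Tubb6 is a divergent beta tubulin whose level is known to affect microtubule stability. It read 1140, 812, 1810 and 1400 in DBP-DBP testes, against 82.7, 91.4, 52.7 and 56.4 in DBP-oil testes (log2 difference 3.86 ± 0.22, adjusted p = 2.63e-10). It read 1220, 1750, 1020 and 1390 in oil-DBP testes, against 113, 71, 80.3 and 139 in oil-oil testes (3.49 ± 0.22, adjusted p = 1.14e-09). Every array of the groups given postnatal DBP was above every array of the groups given oil, and the 2 differences passed in all 29 alternative analyses. Its levels after DBP, 1290 on average in DBP-DBP and 1340 in oil-DBP testes, lay below the fetal levels of 2630 in GD20 DBP and 2190 in GD20 oil testes. A second, dim probe set for Tubb6 with a mean of 15.7 over the arrays gave 0.24 ± 0.34 in both comparisons and was not called.

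Tubb2a, another beta tubulin, read 1570, 1610, 2280 and 1970 in DBP-DBP testes, against 1310, 1140, 1320 and 986 in DBP-oil testes (log2 difference 0.61 ± 0.14, adjusted p = 0.0098). In oil-DBP testes it read 2100, 3000, 1790 and 2300, against 1310, 1590, 1200 and 1250 in oil-oil testes (0.69 ± 0.14, adjusted p = 0.00276). The groups did not overlap in either comparison. Tubb5, the common beta tubulin of dividing cells, averaged 4130 in oil-DBP and 3220 in oil-oil testes (0.30 ± 0.08, adjusted p = 0.0227), and 3550 in DBP-DBP and 3180 in DBP-oil testes (0.14 ± 0.08, adjusted p = 0.447). Its second probe set gave -0.14 ± 0.12 in the first comparison, so the call rests on 1 probe set. The other 7 tubulins were not called: Tubb4b, for example, averaged 24400 in oil-DBP and 26100 in oil-oil testes (-0.16 ± 0.09), and Tubb2b 38.1 in oil-DBP and 61.6 in oil-oil testes (-0.53 ± 0.31).

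The promoter windows of Tubb6 and Tubb2a are shown because these genes moved most among the tubulins in both comparisons. Capitals mark letters of the motifs searched, on either strand. In Tubb6 (chr18:63213037-63213336, plus strand) they are 3 GC boxes that begin 140, 118 and 68 bases before the start. In Tubb2a (chr17:31001936-31002235, plus strand) they are GC boxes that begin 83 and 45 bases before the start, a TATA box 31 bases before it, and the palindrome of the cyclic AMP response element, which holds TGACGT on both strands in overlap from 61 bases before it.
Tubb6: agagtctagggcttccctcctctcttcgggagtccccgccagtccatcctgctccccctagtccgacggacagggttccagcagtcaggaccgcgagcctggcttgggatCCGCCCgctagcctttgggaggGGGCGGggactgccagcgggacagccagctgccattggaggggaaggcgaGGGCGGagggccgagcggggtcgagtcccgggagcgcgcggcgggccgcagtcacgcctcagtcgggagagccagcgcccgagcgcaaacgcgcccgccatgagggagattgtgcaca
Tubb2a: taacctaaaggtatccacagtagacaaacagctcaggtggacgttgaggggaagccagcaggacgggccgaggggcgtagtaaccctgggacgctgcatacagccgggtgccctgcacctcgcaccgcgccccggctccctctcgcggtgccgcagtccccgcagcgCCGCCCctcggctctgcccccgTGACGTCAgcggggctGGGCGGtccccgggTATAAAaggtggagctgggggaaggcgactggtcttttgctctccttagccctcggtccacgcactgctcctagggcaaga

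Spag9, a scaffold that ties JNK signalling to kinesin and dynein cargo, read 1500, 1360, 1550 and 1510 in DBP-DBP testes, against 852, 1060, 1100 and 1140 in DBP-oil testes (log2 difference 0.49 ± 0.09, adjusted p = 0.0011). It averaged 1560 in oil-DBP and 931 in oil-oil testes (0.66 ± 0.09, adjusted p = 2.94e-05), with no overlap in either. Averaged over all its probe sets, the difference between DBP-DBP and DBP-oil testes was no longer called (0.20, adjusted p = 0.438). Kif21a, a kinesin that slows microtubule growth, averaged 889 in DBP-DBP and 639 in DBP-oil testes (0.45 ± 0.12, adjusted p = 0.0334), and 865 in oil-DBP and 557 in oil-oil testes (0.56 ± 0.12, adjusted p = 0.00477). The first of these calls was lost in 9 of 29 alternative analyses, among them the fit with a term for spike-in class, and the second in 1.

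Kif13a read 103, 121, 76.6 and 122 in oil-DBP testes, against 13.6, 4.68, 10.6 and 12.2 in oil-oil testes (log2 difference 2.14 ± 0.53, adjusted p = 0.0135). These groups did not overlap. In DBP-DBP testes it read 130, 53.1, 151 and 6.71, against 5.02, 14.9, 97.2 and 82.9 in DBP-oil testes (0.58 ± 0.53, adjusted p = 0.691). The DBP-oil pups at 97.2 and 82.9 were 132 and 134, the 2 of that group in the high spike-in class. All DBP-DBP pups were in the high class too and read 6.71 to 151. All oil-DBP pups were in the low class and read 76.6 to 122. The part of the class in these values was not tested. Its 2 other probe sets gave 0.79 ± 0.35 and 0.24 ± 0.26 between oil-DBP and oil-oil testes and were not called.

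A few other microtubule genes outside the 103 were higher after postnatal DBP, Dcx and Map1b in both comparisons. Of 32 microtubule-associated and tubulin-modifying genes, 6 were higher and 1 lower in oil-DBP than in oil-oil testes, against 6.18% higher and 5.99% lower over all genes. In DBP-DBP testes 2 were higher and 0 lower than in DBP-oil testes, against 5.16% and 2.17% over all genes. Most of the list was not called, and its medians were -0.09 in the first comparison and -0.01 in the second. Dcx, doublecortin, which stabilises microtubules in migrating neurons, averaged 564 in DBP-DBP and 129 in DBP-oil testes (log2 difference 1.92 ± 0.19, adjusted p = 7.82e-07), and 613 in oil-DBP and 151 in oil-oil testes (1.82 ± 0.19, adjusted p = 1.47e-06). Map1b, a microtubule-associated protein of growing axons, averaged 1190 in DBP-DBP and 723 in DBP-oil testes (0.70 ± 0.14, adjusted p = 0.0024), and 1360 in oil-DBP and 869 in oil-oil testes (0.55 ± 0.14, adjusted p = 0.0137). Eml2 (1.20 ± 0.25) and the tubulin deacetylase Hdac6 (0.47 ± 0.14) were higher in oil-DBP than in oil-oil testes.

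Markers of somatic cells changed as well after postnatal DBP, those of peritubular myoid cells upward. The 11 markers summed to between 13500 and 14800 in DBP-DBP and between 10100 and 10800 in DBP-oil testes, and to between 13500 and 15600 in oil-DBP and between 10400 and 11400 in oil-oil testes. Of the 11, 7 were higher in DBP-DBP than in DBP-oil testes and 6 in oil-DBP than in oil-oil testes, against 5.16% and 6.18% higher over all genes. Of 10 Leydig cell markers, 5 were lower and 2 higher in oil-DBP than in oil-oil testes (median log2 difference -0.71), against 5.99% lower and 6.18% higher over all genes. Without pup 105, 7 were lower, against 13.6% of all genes. The 10 markers summed to between 15100 and 20900 in oil-DBP and between 21000 and 27400 in oil-oil testes. In DBP-DBP testes 2 of them were lower and 1 higher than in DBP-oil testes, against 2.17% lower and 5.16% higher over all genes. Cyp17a1, an enzyme of androgen synthesis, averaged 3370 in oil-DBP and 8610 in oil-oil testes (-1.50 ± 0.24). Of 14 Sertoli cell markers, 4 were higher and 2 lower in oil-DBP than in oil-oil testes, against 6.18% and 5.99% of all genes. Without pup 105 these counts were 4 and 3, against 7.77% and 13.6% of all genes. Between DBP-DBP and DBP-oil testes 0 were higher and 2 lower, against 5.16% and 2.17% of all genes. The 14 markers summed to between 72300 and 101000 in oil-DBP and between 72200 and 87700 in oil-oil testes. Inhbb, a subunit of inhibin B, was lower in both comparisons (-0.98 ± 0.15 in DBP-DBP and -0.86 ± 0.15 in oil-DBP testes). No myoid, Leydig or Sertoli marker was at 0 on any array. The same held for spermatid markers in the fetal testis, so it does not show presence. The part of myoid, Leydig and Sertoli cells in the rise of Tubb6, Tubb2a, Spag9 and Kif21a was not tested.

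The flagellar genes leaned the other way after postnatal DBP, by small amounts that few single genes carried past the test. The 51 axonemal dynein, Cfap, intraflagellar transport, tektin and Akap genes, grouped after their values were seen, had a median log2 difference of -0.26 between oil-DBP and oil-oil testes, and 49 of 51 (96.1%) were negative. Over all genes the median was -0.11 and 64.6% were negative. Between DBP-DBP and DBP-oil testes the median of the 51 was -0.11 and 44 (86.3%) were negative, against -0.07 and 62.8% for all genes. The sign of the median held under all 4 scalings, at -0.17 to -0.26 in the first comparison and -0.08 to -0.12 in the second. Of the 51, 2 were called lower in oil-DBP testes and 0 in DBP-DBP testes, against 5.99% and 2.17% of all genes.

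**Figure D3:**
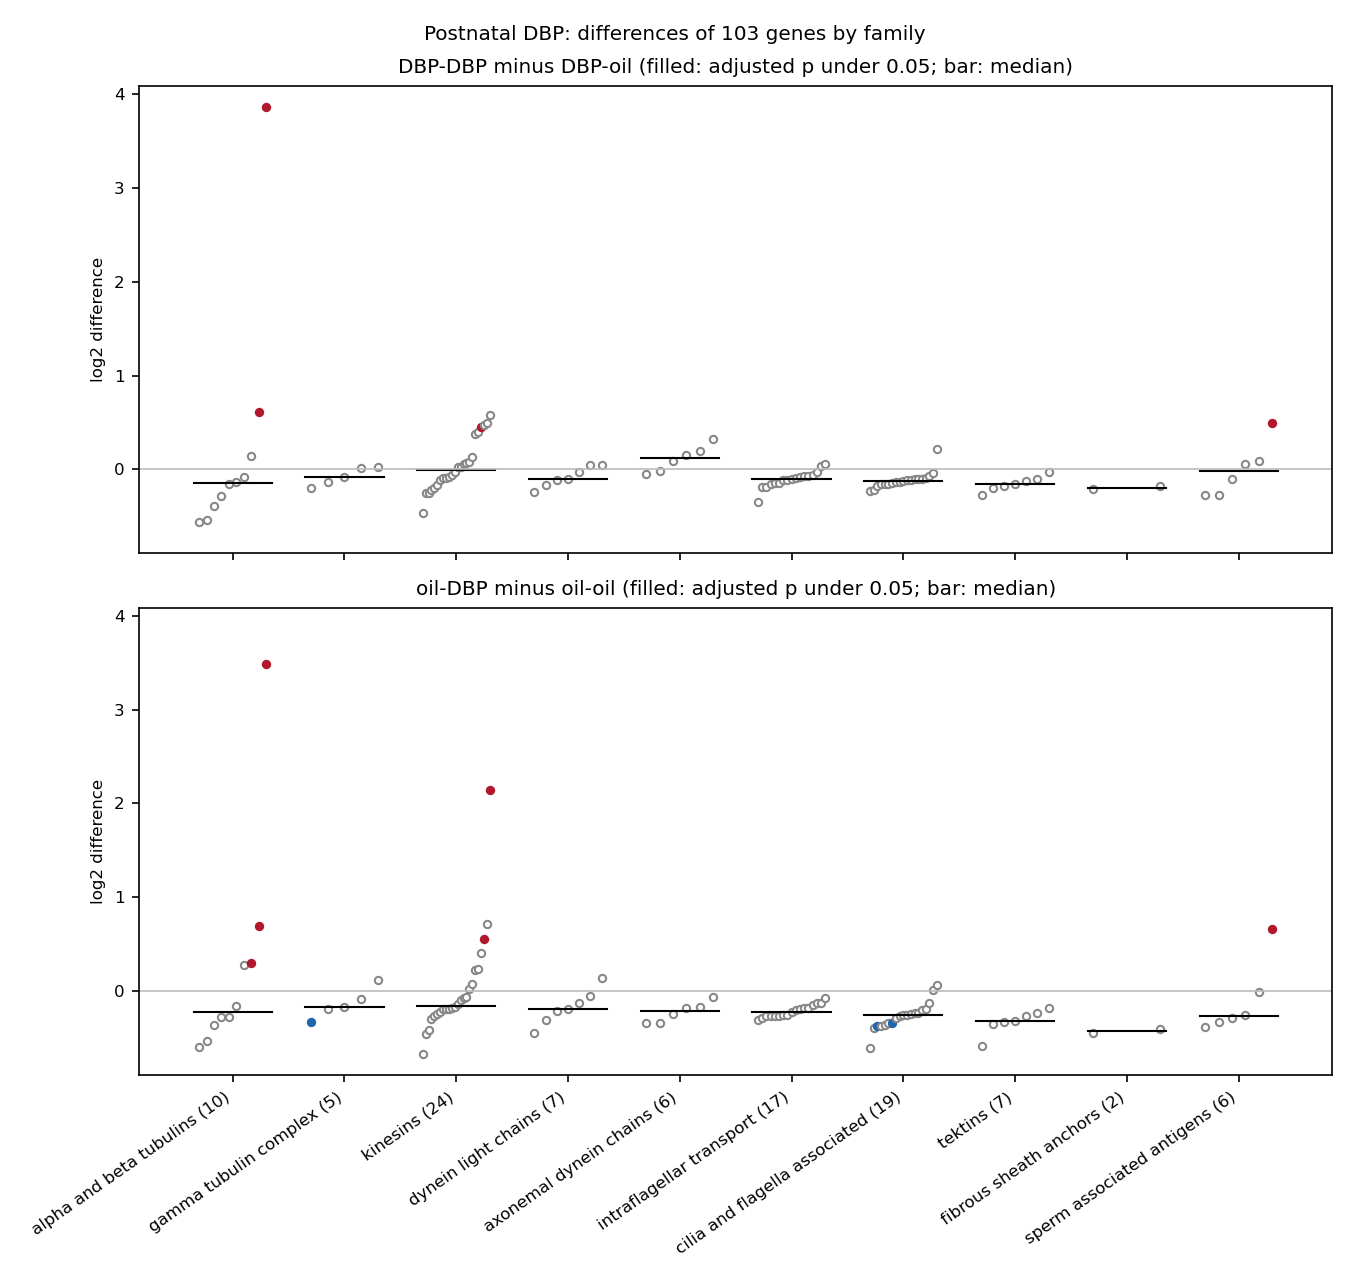
Log2 difference of each of the 103 genes by family between DBP-DBP and DBP-oil testes (top) and between oil-DBP and oil-oil testes (bottom). Filled red points were higher and filled blue points lower at an adjusted p under 0.05, open points were not called, and the bar is the family's median. Tubb6 stands alone at 3.86 and 3.49, and most points of the flagellar families lie just below 0.

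The genes called lower were Cfap161, Cfap97 and Tubg1. Cfap161 read 12000, 9010, 10000 and 10300 in oil-DBP testes, against 14200, 12800, 13100 and 10900 in oil-oil testes (log2 difference -0.37 ± 0.11, adjusted p = 0.0298). Cfap97 averaged 7050 in oil-DBP and 8540 in oil-oil testes (-0.34 ± 0.10, adjusted p = 0.0371). Tubg1, the gamma tubulin that nucleates microtubules, read 2980, 2570, 2980 and 2790 in oil-DBP testes, against 3790, 3580, 3090 and 3230 in oil-oil testes (-0.33 ± 0.09, adjusted p = 0.023), with no overlap. After quantile normalization none of the 103 genes was called lower, and each of the 3 calls was lost in 9 or more of 29 alternative analyses.

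How many flagellar genes were called rested on the array of oil-DBP pup 105. On it the median of the 51 genes was 0.02 above the oil-oil mean on the log2 scale, while on the arrays of pups 111, 115 and 121 it was -0.43, -0.29 and -0.32. This pup was set aside because of its values for these genes, so more calls without it are no independent result. Leaving out a single array in turn gave 6 to 40 called genes, 6 without oil-oil pup 110 and 40 without pup 105. Without pup 105, 34 of the 103 genes were lower and 6 were higher than in oil-oil testes, against a background of 13.6% lower and 7.77% higher over all genes. Among the 34 were 10 of 19 Cfap genes, 3 of 7 tektins, 5 of 17 intraflagellar transport genes, 2 of 6 axonemal dynein chains and both Akap genes. Cfap126 (-0.97 ± 0.20, adjusted p = 0.00284), Tuba8 (-0.82 ± 0.18), Akap4 (-0.63 ± 0.15), Dnah2 (-0.56 ± 0.17) and Dnah1 (-0.55 ± 0.12) had the lowest values among the 34 genes. With pup 105 the differences of Cfap126 and Akap4 were -0.61 ± 0.27 and -0.45 ± 0.17 (adjusted p = 0.166 and 0.101).

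**Figure D4:**
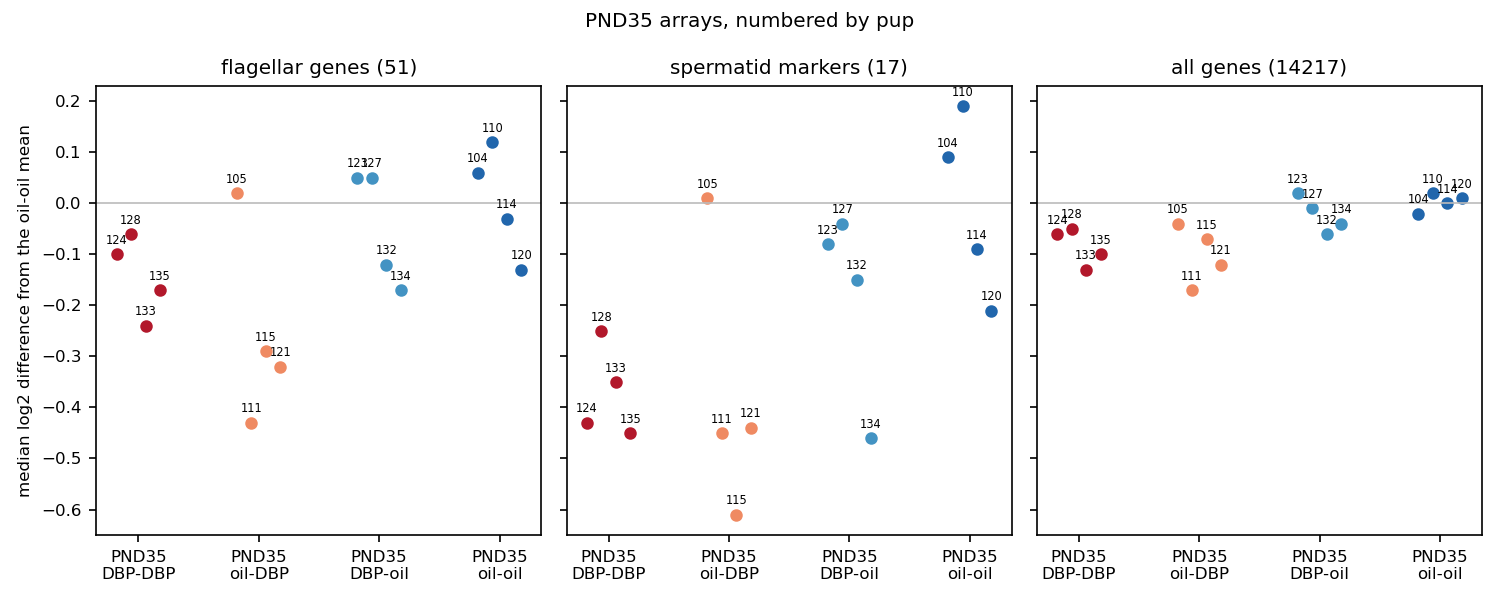
Median log2 difference from the oil-oil mean on each PND35 array, numbered by pup, over the 51 flagellar genes, 17 spermatid markers and all 14217 genes. Pup 105 lies at 0.02 for the flagellar genes and at 0.01 for the spermatid markers, and the 3 other oil-DBP pups lie at -0.29 or below for both.

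Akap4 showed the same pattern gene by gene, with 5210, 3280, 3090 and 3340 in oil-DBP testes, the first from pup 105, against 5070, 6370, 3990 and 4000 in oil-oil testes. Spermatid markers moved with the flagellar genes across arrays. Their median was 0.01 above the oil-oil mean on the array of pup 105 and -0.45, -0.61 and -0.44 on those of pups 111, 115 and 121. It was -0.43, -0.25, -0.35 and -0.45 on the DBP-DBP arrays, and -0.08, -0.04, -0.15 and -0.46 on the DBP-oil arrays. Of the 17 spermatid markers 5 were called lower in oil-DBP testes with pup 105 and 10 without it. The background of lower calls over all genes was 5.99% with pup 105 and 13.6% without it. The summed level was 130000 to 189000 in oil-DBP and 156000 to 209000 in oil-oil testes. Its part in the flagellar differences was not tested.

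Lists of flagellar and transport genes outside the 103 had few calls between oil-DBP and oil-oil testes with pup 105 and more without it. Pup 105 was set aside after its flagellar values were seen. Over all genes 5.99% were lower with this pup and 13.6% without. The fibrous sheath and outer dense fibre list had 2 of 14 genes lower, Odf2 and Septin4, with a median of -0.35, and 8 of 14 without pup 105. The dynein arm assembly list had 2 of 9 lower, Dnaaf3 (-0.48 ± 0.12) and Dnali1 (-0.40 ± 0.11), and 6 of 9 without pup 105. The regulators of cilia and spermiogenesis had 4 of 29 lower, Meig1 (-0.54 ± 0.16) and Rfx4 (-0.46 ± 0.14) among them, and 12 of 29 without pup 105. None of the 12 radial spoke and docking genes was called with pup 105 (median -0.24), and 3 were lower without it. Cytoplasmic dynein and dynactin genes had 1 of 18 lower with pup 105 and 6 without it, and kinesin light chains and adaptors 0 of 13 with it and 1 without. Between DBP-DBP and DBP-oil testes the only call in these 6 lists was Klc2, a kinesin light chain, which was lower (-0.38 ± 0.10, adjusted p = 0.0242).

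Fetal DBP alone left no call at PND35. Between DBP-oil and oil-oil testes 0 of 103 genes passed by limma, against 0% higher and 0% lower over all genes. The smallest p was that of Ift20, which brings membrane proteins from the Golgi to the cilium. Ift20 read 1970, 2870, 2360 and 2400 in DBP-oil testes, against 3680, 2680, 3780 and 3330 in oil-oil testes (log2 difference -0.50 ± 0.11, adjusted p = 0.171), and the groups overlapped. Ift122 averaged 3000 in DBP-oil and 2410 in oil-oil testes (0.30 ± 0.09, adjusted p = 0.367).

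Between DBP-DBP and oil-DBP testes 0 of 103 genes passed as well, against 0% of all genes. The spike-in class follows this comparison exactly, so class and fetal treatment cannot be told apart. The smallest p values were those of Ift80 (0.34 ± 0.09, adjusted p = 0.241), the spindle kinesin Kif20b (0.37 ± 0.10) and Spag5 (0.38 ± 0.11). Cfap126 averaged 6200 in DBP-DBP and 3980 in oil-DBP testes (0.85 ± 0.27, adjusted p = 0.334), and without pup 105 it was the single gene called (1.21, adjusted p = 0.0309). This comparison shares its arrays with both comparisons of postnatal DBP.

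The response to postnatal DBP was not shown to differ with fetal exposure. In the interaction of fetal and postnatal DBP 0 of 103 genes passed by limma, against 0% of all genes. Among the 5 smallest p values were those of Dnah2 (0.67 ± 0.28), Kif1b (1.15 ± 0.49) and Cfap126 (0.83 ± 0.38), each with an adjusted p of 0.954. Kif13a gave -1.56 ± 0.75 at the same adjusted p. Kif1b was dim, at 39.1 or less on every array. For Tubb6 the interaction was 0.37 ± 0.32, with a 95% interval of -0.28 to 1.03.

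In the fetal testis DBP gave no call among these genes. Between GD20 DBP and GD20 oil testes 0 of 103 genes passed by limma, against a background of 0.302% higher and 0.253% lower. Cfap90 read 195, 209, 258 and 255 in GD20 DBP testes, against 143, 140, 149 and 174 in GD20 oil testes (log2 difference 0.55 ± 0.14, adjusted p = 0.147), with no overlap. Tuba4a averaged 1010 in GD20 DBP and 844 in GD20 oil testes (0.25 ± 0.08, adjusted p = 0.232), and Tekt4 averaged 134 in GD20 DBP and 82.7 in GD20 oil testes (0.59 ± 0.21, adjusted p = 0.296). The median of the 103 differences was 0.05, and 61 were positive.

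**Figure D5:**
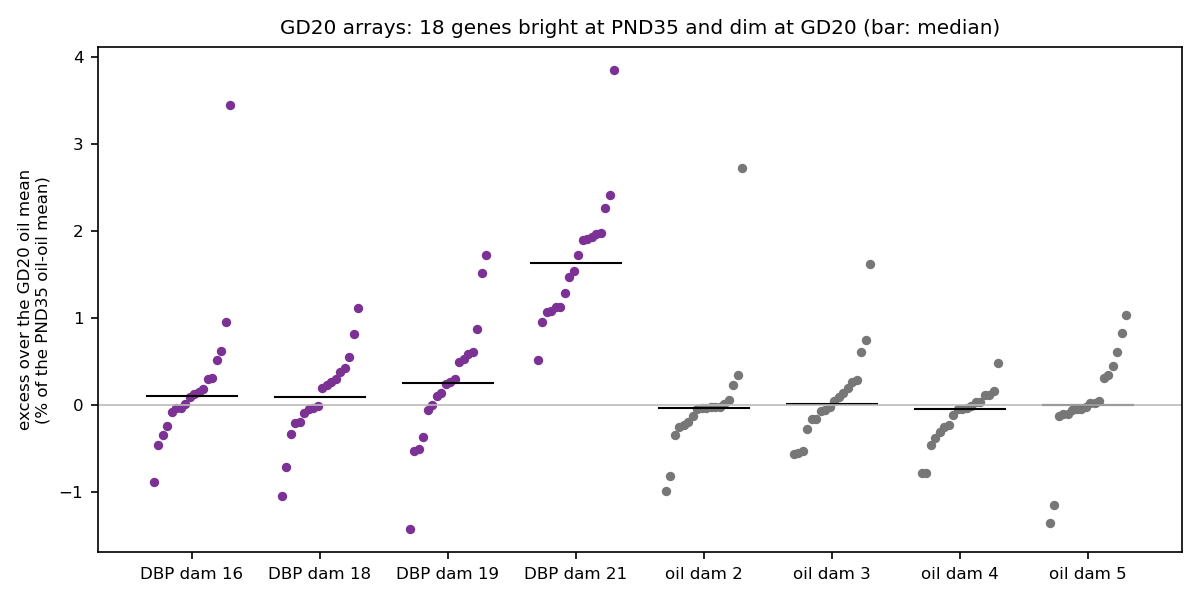
Excess of each GD20 array over the GD20 oil mean, as a percent of the PND35 oil-oil mean, for the 18 genes with a PND35 oil-oil mean of at least 2000 and a GD20 oil mean under 300. Points are genes and bars are medians. The array of DBP dam 21 has a median of 1.63%, and the other DBP arrays have medians of 0.0916% to 0.255%.

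The array of DBP dam 21 stood apart from the other fetal arrays. For 18 genes that were bright in PND35 oil-oil and dim in GD20 oil testes, its excess over the GD20 oil mean had a median of 1.63% of the PND35 oil-oil level, and 16 of the 18 were above all 4 oil arrays. On the arrays of DBP dams 16, 18 and 19 the median was 0.105%, 0.0916% and 0.255%. Over the 266 other genes that met the same limits the median on the array of dam 21 was 2.16%, and 231 were above all oil arrays. Spag16 read 1.43, 1.36, 3.23 and 49.4 in GD20 DBP testes, the last from dam 21, against 3.42, 2.18, 2.53 and 3.84 in GD20 oil testes. The 17 spermatid markers summed to 7330 on the array of dam 21, 848 to 1440 on the other DBP arrays and 824 to 912 on the oil arrays, and their part in these values was not tested. Without dam 21 again 0 of the 103 genes were called.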

How the data were processed

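Testis RNA was measured on 24 one-colour Affymetrix arrays of 31099 probe sets. The authors deposited intensities per probe set, linear and scaled to a 2% trimmed mean of about 500 on each array, as the values show. Scanner software GCOS 1.0 is named in the submitters' processing notes, and no source used here gives the summary algorithm. The 57 control probe sets were left out, and 31042 were tested on log2(intensity + 16) with limma 3.58.1 in R 4.3.3 (lmFit, eBayes with an intensity trend), adjusted by Benjamini-Hochberg at 0.05. The 8 GD20 arrays were used as deposited, and the 16 PND35 arrays (1 fit) and the 8 arrays of the age comparison were centred on the median. The offset makes fold changes of dim genes too small. Differences are DBP minus oil, later minus earlier or DBP-DBP minus oil-DBP. Single-gene probe sets were named from a platform annotation. All 103 genes matched current RefSeq symbols. The scripts were tested on simulated data.

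The text names a fixed set of genes, up to 12 of the largest called differences a direction in each comparison, otherwise the 5 smallest p values, and up to 4 called genes of each list. Genes and lists were chosen with earlier results of these data known. Alternatives changed the scaling, offset, filter, variance prior, probe sets, covariates, arrays and pairing. The number of arrays limits the precision. Promoters are RefSeq's, from build GRCr8.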

Additional observations from a re-analysis of the deposited data

Results flagged for a closer look

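In 22 of 408 pairs of a gene and a group, over 68 genes and 6 groups, the highest or lowest of the 4 arrays lay far from the other three by Dixon's test at 95%. Chance alone flags about 1 in 20 groups. The array of oil-DBP pup 105 was high for Akap4 (5210), Cfap97 (8180) and Dnah1 (1320), and that of DBP dam 21 for Cfap161 (297) and Spag16 (49.4). Among the other oil-DBP arrays, pup 115 was high for Kif15 (737) and low for Kif1b (2.73), and pup 111 was low for Kif1c (84.3). Among DBP-DBP arrays, pup 133 was low for Dynlrb2 (6950), pup 128 low for Dynlt3 (334), pup 124 high for Spag5 (2940), and pup 135 high for Tubb2b (51.4) and Tubb5 (3810). In DBP-oil testes the arrays of pup 132 for Kif18a (263) and Kif1b (7.06) and of pup 134 for Kif14 (112) stood apart. In oil-oil testes these were pup 120 for Cfap126 (3540), pup 110 for Dnah17 (51) and Kif2c (1260), and pup 104 for Spag7 (1100). In the fetal groups the array of DBP dam 19 stood apart for Kif1c (576) and that of oil dam 5 for Dynll2 (599).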

How the results depend on the processing

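The count of genes that differed between oil-DBP and oil-oil testes, 9 of 103, was 17 (6 higher, 11 lower) with a filter on dim probe sets, 5 (5 higher) without the intensity trend, 4 (4 higher) with the RNA integrity number as a covariate and 5 (5 higher) with only the 8 arrays compared. Leaving out 1 array gave 6 to 40 genes: 40 without pup 105 and 14 without oil-oil pup 120. Of 4 genes between DBP-DBP and DBP-oil testes, 2 were called without the trend and 3 to 4 with 1 array left out. Between DBP-DBP and oil-DBP testes leaving out 1 array gave 0 to 1. The cause was not tested. Pups have no shared numbers. A replicate block of adjacent pup numbers gave 23 genes (6 higher, 17 lower) between oil-DBP and oil-oil testes, with 4 of 8 neighbours the best match and correlations of -0.13 to 0.24, so the pairing is not established. With age 90 to 94 of 103 genes were called in every setting. Of the single-gene values between oil-DBP and oil-oil testes under these settings, 43 lost and 16 gained the call and 433 did neither. No named gene changed sign past the threshold. Low intensity limits Kif1b, Kif13a and the fetal levels of Akap4 and Spag16.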
